A study of Mus musculus with 4 samples.

Results

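Wnt ligands, their receptors and the secreted proteins that hold them back were followed in mouse colon on 4 dual-color Agilent arrays. Members were chosen by name: every gene probe whose gene symbol begins with Wnt, Fzd, Dkk or Sfrp and a digit, together with Wif1, Frzb, Lrp5, Lrp6, Ror1, Ror2, Ryk, Porcn, Wls, Kremen1 and Kremen2. This gave 68 of 41174 probes, which stand for 48 of 27343 genes. They are 19 Wnt ligands, 2 genes of ligand secretion, 10 Frizzled receptors, 5 co-receptors, 2 Kremen receptors of Dkk proteins, 4 Dkk inhibitors and 6 inhibitors that bind the ligands.

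Wnt ligands receive a lipid from Porcn, are carried to the cell surface by Wls and bind a Frizzled receptor together with Lrp5 or Lrp6, which stabilizes beta-catenin inside the receiving cell. Sfrp proteins, Frzb and Wif1 catch the ligand outside the cell, whereas Dkk proteins such as Dkk1 occupy Lrp5 and Lrp6 with the help of Kremen receptors. R-spondins such as Rspo3 keep Frizzled and Lrp receptors on the surface by removing the ligases Rnf43 and Znrf3, and in the colon much of this supply comes from the stroma around the crypt base.

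In the first experiment, colon RNA of Myh11CreErt2/Rspo3 fl/fl mice (Rspo3 KO) was hybridized against that of Myh11CreErt2/Rspo3+/+ littermates (control), 2 weeks after tamoxifen. Each array held 1 KO and 1 control mouse and the dyes were reversed on the other array, so there were 2 pairs of mice. All of these mice carried the Cre allele and received tamoxifen at 4 mg per 25 g body weight, and the Myh11 promoter limits the deletion to smooth muscle cells and myofibroblasts. In the second experiment, tdTomato positive (Axin2+) and tdTomato negative (Axin2-) colon epithelial cells were sorted from Axin2CreErt2/Rosa26-tdTomato mice 24 h after tamoxifen. The cells of 3 mice were pooled, and the same pair of pools was hybridized on 2 arrays with the dyes reversed, which makes 1 replicate and allows no test. tdTomato marks cells in which the Axin2 promoter drove Cre at the time of tamoxifen, and their daughters, rather than Axin2 RNA itself. The mice were C57BL/6 and, by the study's methods, males of 6 to 8 weeks, and the labels name the colon of the first experiment as distal.

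Values are log2 ratios of Rspo3 KO over control or of Axin2+ over Axin2-, and levels are normalized log2 signals of 1 probe, which are not compared between probes. Where levels are compared between the pairs of mice, mouse, array and dye cannot be told apart. Each gene was read from the brightest of its probes and counted as measured where, on each array, that probe stood well above background in 1 channel or in both. A gene past 1.5-fold alike had a mean ratio over 1.5-fold with the same sign on both arrays. The pairs of the KO experiment hardly resembled each other, with a Pearson r of 0.03 between the arrays across 15373 genes, against 0.93 across 15880 genes for the dye swap of the sorted pools. By ranks, the Spearman rho was -0.12 for the KO pairs and 0.87 for the dye swap. All of these correlations run across genes, which are not independent. Rspo3 itself could not check the KO label: 1 of its probes had log2 ratios of 0.10 and 0.17 and was above background on the second array alone, and the other was not above background in any channel. In the sorted pools Axin2 had log2 ratios of 1.35 and 1.30, as the labels name them. All 8 epithelial markers were measured in the sorted cells and 4 of 10 fibroblast markers, against 5 of 8 and 10 of 10 in whole colon. Immune markers numbered 7 of 8 in the sorted cells and 6 of 8 in whole colon, and smooth muscle markers 4 of 9 and 7 of 9. Endothelial markers numbered 2 of 5 and 5 of 5, and those of neurons and glia 2 of 7 and 5 of 7. In whole colon the probes of Krt18, Krt19, Cldn7, Cnn1 and Myl9 were left out as outlier spots. No member was left out for that reason.

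Most Frizzled and co-receptor genes were measured in both materials, and ligands less often. Of the 48 genes, 23 were measured in both materials, 9 in whole colon alone, 5 in sorted epithelium alone and 11 in neither. Of the 19 Wnt ligands, 8 were measured in each material and 9 in neither, among them Wnt3, Wnt3a, Wnt2b, Wnt10a and Wnt10b. The remaining ligands measured in neither were Wnt7a, Wnt8a, Wnt8b and Wnt16.

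**Figure D1:**
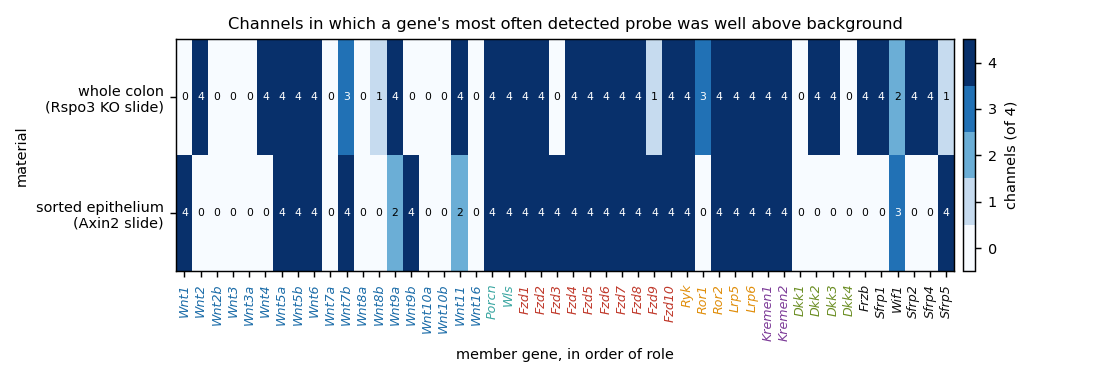
Each column is a member gene, in order of role and colored by role on the axis, and each cell gives the number of channels, of 4 per experiment, in which the gene's most often detected probe was well above background. The Frizzled and Lrp genes are dark in both rows apart from Fzd3 and Fzd9 in whole colon, while 9 of the 19 ligands were measured in neither.

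The genes measured in whole colon alone were Sfrp1, Sfrp2, Sfrp4 and Frzb of the ligand-binding inhibitors, Dkk2 and Dkk3, the ligands Wnt2 and Wnt4, and Ror1, a receptor for Wnt5a. The genes measured in the sorted epithelium alone were Wnt1, Wnt9b, Fzd3, Fzd9 and Sfrp5. Whole colon and sorted cells were hybridized on different slides with no common RNA, so the material and the slide cannot be told apart, and a probe not above background gives no bound on what the cells make.

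The first question was whether the Wnt machinery itself differed when stromal Rspo3 was deleted. Sfrp1 stood out among the members: it rose in Rspo3 KO colon and was the only measured member that passed the limma test. Of 32 measured members, 1 had an adjusted p below 0.05, against 0.241% of all 15373 genes tested, and 3 had an unadjusted p below 0.05, against 4.65%. The members past 1.5-fold alike were Sfrp1 and Lrp5, 2 of 32 and both higher, against 4.33% of all genes. The median of the members' mean log2 ratios was 0.01 and that of all genes was -0.01. Of the 32, 8 were higher in both pairs, 6 lower in both and 18 opposite, and over all genes these shares were 20.3%, 23.9% and 55.8%.

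**Figure D2:**
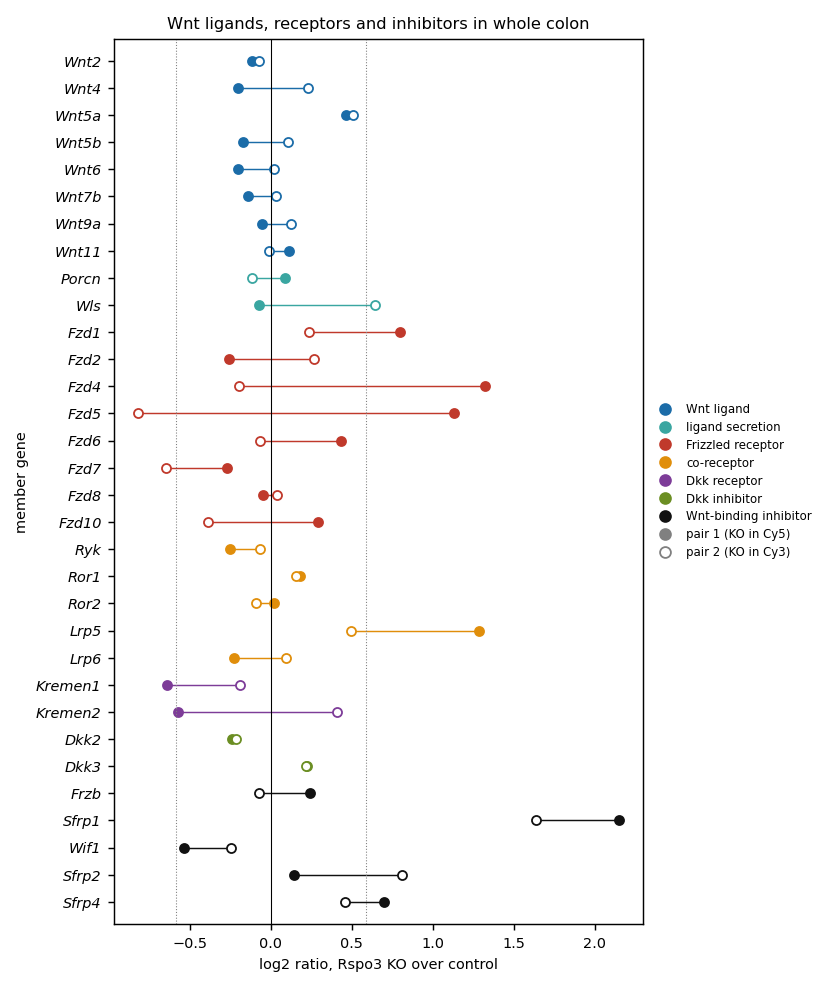
Log2 ratio of Rspo3 KO over control for the 32 measured members, with the first pair of mice as a filled point, the second as an open point and dotted lines at 1.5-fold. Sfrp1 lies far to the right in both pairs, and Fzd4, Fzd5 and Kremen2 lie on opposite sides of 0.

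Sfrp1, a secreted protein with a Frizzled-like domain that binds Wnt ligands, had a normalized log2 signal of 10.80 in the KO and 8.65 in the control mouse of the first pair. In the second pair the signals were 10.82 and 9.19. Both KO mice were above both control mice, and the KO values lay closer together than those of the controls. The log2 ratios of 2.15 and 1.63 gave a mean of 1.89 ± 0.36 (SD, n = 2 pairs), a 3.71-fold difference with an adjusted p of 0.0316 by limma. With 1 residual degree of freedom this test leans on the spread of all genes, and the adjusted p became 0.794 when all spots entered the background fit, 1.0 with median centring in place of loess and 0.536 without the filter on dim probes. The mean log2 ratio was then 1.31, 1.94 and 1.89. With the extraction software's ratios, an offset of 16, no background correction, the stricter filter or a dye term, the adjusted p lay between 0.000367 and 0.0196 by limma.

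The second Sfrp1 probe, A_52_P564706, was above background in the KO channel on both arrays and in the control channel on neither, with log2 ratios of -0.00 and 0.60. It was too dim to show how far the KO and control mice differed. The mean over both probes was 1.09 on the log2 scale with an adjusted p of 0.271. On mm9 the brighter probe, A_51_P352296, lies at chr8:24558112-24558171 and the dim one at chr8:24558800-24558859, both on the plus strand.

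Sfrp4 and Sfrp2, relatives of Sfrp1 that also bind Wnt ligands, were higher in both KO mice without passing the test. Sfrp4 signals were 9.86 in KO against 9.16 in control in the first pair and 9.13 against 8.67 in the second, with a mean log2 ratio of 0.58 ± 0.17 (SD, n = 2 pairs) and an unadjusted p of 0.0384 by limma. Its KO and control mice overlap across pairs, since the KO mouse of the second pair lay below the control of the first. Sfrp2 had log2 ratios of 0.14 and 0.81, so that the second pair carried nearly all of its mean of 0.48.

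Frzb, also called Sfrp3, stayed near 0 with 0.24 and -0.07. Wif1, which binds ligands through its own WIF domain, was above background in both control mice, at 6.89 and 6.74, and in neither KO mouse, at 6.36 and 6.5. Its mean was 1.31-fold lower in KO, adjusted p = 1.0 by limma, with log2 ratios of -0.54 and -0.25. Its level was so near the background that the log ratios of the extraction software gave a mean of -1.59 in place of -0.39, and all spots in the background fit gave -0.14.

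Dkk2 and Dkk3 repeated closely between the pairs but were small, at -0.24 and -0.22 for Dkk2 and at 0.23 and 0.22 for Dkk3. Dkk1 and Dkk4 were not above background. The receptors Kremen1 and Kremen2 had log2 ratios of -0.64 and -0.19 and of -0.57 and 0.41. Kremen1 was thus lower in both KO mice without passing the test, and Kremen2 changed sign between the pairs. A second Kremen1 probe that passed the filter had -0.11 and 0.17.

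In whole tissue, fewer cells of a type and less RNA per cell cannot be told apart. The fibroblast markers, 10 of 10 measured, had a median log2 ratio of 0.15 in the first pair and 0.37 in the second, and their summed linear signal was 127321 in KO and 107519 in control, then 140433 and 112641. Of the 9 smooth muscle markers, 7 were measured, with medians of 0.24 and 0.21 and summed signals of 111806 against 95373.5 and 118366 against 111190. None of the measured markers in these lists was past 1.5-fold alike, and their part in the Sfrp1, Sfrp2 and Sfrp4 differences was not tested.

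Among the receptors, Lrp5 and a probe of Lrp6 were higher in both KO mice. Lrp5, the co-receptor that carries the ligand's signal with Frizzled, had signals of 9.91 in KO and 8.62 in control in the first pair and 9.98 and 9.48 in the second, so both KO mice were above both controls. The mean log2 ratio was 0.89 ± 0.56 (SD, n = 2 pairs), 1.85-fold, with an unadjusted p of 0.0110 and an adjusted p of 0.611 by limma. In 1 fit over all 4 arrays with a dye term the adjusted p was 0.0489, but the spread in that fit also draws on the dye swap of the sorted pools, which is technical. With all spots in the background fit the mean was 0.47, below 1.5-fold.

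Lrp6, its close relative, gave a different answer from each probe. The brighter probe, A_52_P453684 at chr6:134491492-134491551 on the minus strand of mm9, had log2 ratios of -0.23 and 0.09. The other, A_51_P169401 at chr6:134400356-134400415 on the same strand, had signals of 9.48 and 9.47 in the KO mice and 8.18 and 8.22 in the controls. Its log2 ratios of 1.30 and 1.25 were the closest pair of values among the larger differences named here, and when each of 22539 probes was tested by itself, a choice made after seeing the data, its adjusted p was 0.153 by limma. In that test 1 of 42 member probes, the bright Sfrp1 probe, passed at an adjusted p of 0.0495, against 0.169% of all probes, and 3 were past 1.5-fold alike, against 3.71% of all probes.

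**Figure D3:**
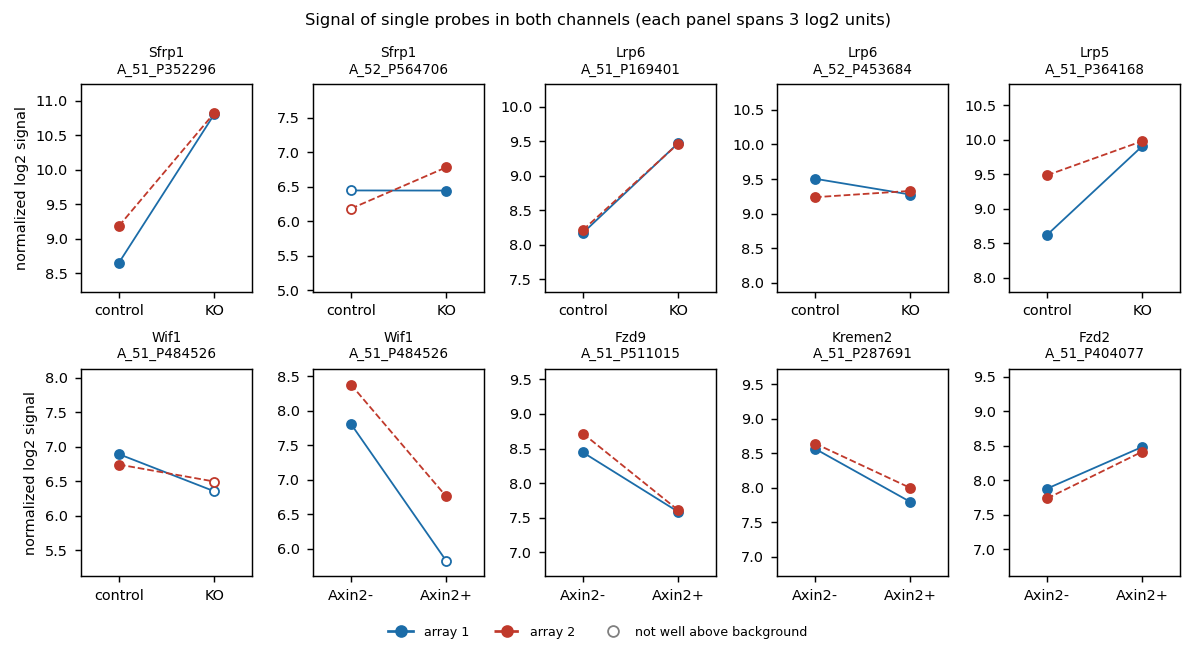
Normalized log2 signal of single probes in the control and KO channels (first 6 panels) and in the Axin2- and Axin2+ channels (last 4 panels), with a line for each array and open points where the probe was not well above background. The paired probes of Sfrp1 and of Lrp6 differ from each other, while Fzd9, Kremen2 and Wif1 fall from Axin2- to Axin2+ on both arrays.

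The Frizzled receptors, which have an extracellular pocket for the ligand's lipid, differed more between the pairs than the measured members or all genes did. The median gap between the pairs was 0.54 on the log2 scale for the 8 measured Frizzleds, 0.30 for all measured members and 0.35 for all genes. Fzd4 had 1.32 in the first pair and -0.20 in the second, and Fzd5, the main Frizzled of intestinal epithelium, had 1.13 and -0.82. The second Fzd5 probe, dim in both pairs, had 0.27 and 0.08. None of the 8 passed the test or was past 1.5-fold alike.

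Some surface colonocyte markers had the same signs as Fzd4 and Fzd5. Over the 4 of 6 such markers that were measured, the median log2 ratio was 1.08 in the first pair and -0.12 in the second, and the summed linear signal was 38859.5 in KO against 21103 in control and 19079 against 27469. Car4, at 1.01 and -0.30, and Slc26a3, at 0.65 and -1.23, changed sign as Fzd4 and Fzd5 did, whereas Slc9a3, at 1.35 and 1.83, and Ceacam1, at 1.14 and 0.06, were higher in both KO mice. Krt20 and Aqp8 of this list were left out because of outlier spots. Whether the colonocyte share had a part in the Fzd4 and Fzd5 values was not tested.

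Fzd1 was higher in both KO mice, at 0.79 and 0.23, and Fzd7, which has been linked to intestinal stem cells, was lower in both, at -0.27 and -0.65. Their unadjusted p values were 0.0743 and 0.0897 by limma. Fzd6, Fzd8, Fzd10 and Fzd2 had opposite signs in the pairs, with Fzd8 the nearest to 0 at -0.05 and 0.04 and Fzd10 the widest at 0.29 and -0.39. The dimmer Fzd10 probe was lower in both KO mice, at -0.11 and -0.14. The receptors Ror1, Ror2 and Ryk, which serve ligands such as Wnt5a, lay between -0.25 and 0.18 in each pair.

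Of the ligands, Wnt5a alone was higher in both KO mice. Wnt5a, a stromal ligand that signals largely without beta-catenin, had signals of 9.04 in KO and 8.58 in control in the first pair and 9.17 and 8.67 in the second. Both KO mice were above both controls, and the mean log2 ratio was 0.48 ± 0.03 (SD, n = 2 pairs) with an unadjusted p of 0.0674 by limma. Wnt2 was lower in both pairs by little, at -0.12 and -0.07.

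Wnt4, Wnt5b, Wnt6, Wnt7b, Wnt9a and Wnt11 had opposite signs in the pairs and lay between -0.20 and 0.23 in each. A second Wnt6 probe, A_51_P482571, was lower in both KO mice at -0.54 and -0.47, while the brighter Wnt6 probe had -0.20 and 0.02. Porcn had 0.09 and -0.12. Wls had -0.07 and 0.64 on its brighter probe and 0.41 and -0.47 on the other, so the probes disagreed in sign in both pairs.

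Beyond the ligands and receptors, 39 of 47 other genes of the pathway were measured, and 6 were past 1.5-fold alike: 1 higher (1.85% of all genes) and 5 lower (2.47%). None had an adjusted p below 0.05 by limma, the lowest being 0.0996, and 5 had an unadjusted p below 0.05. The 5 lower genes were Lgr5, an R-spondin receptor and stem cell marker, at -1.27 and -2.61, Rnf43 at -0.63 and -0.73, the Eph receptor gene Ephb3 at -1.61 and -1.01, the stem cell transcription factor Ascl2 at -0.47 and -0.76, and Tcf7, a nuclear partner of beta-catenin, at -0.40 and -0.77. Rspo1 was the higher gene, at 1.58 and 0.01, which rests on the first pair alone. The median of the mean log2 ratios over these 39 genes was -0.02.

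**Figure D4:**
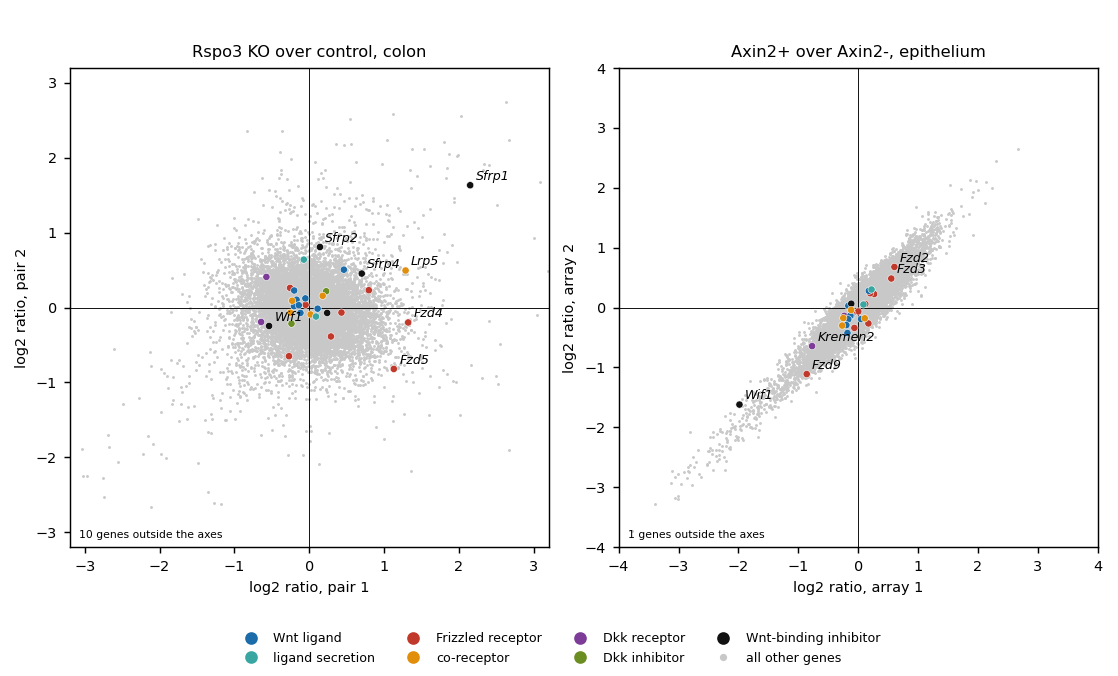
Log2 ratios on the second array against those on the first, for Rspo3 KO over control (left, 2 pairs of mice) and Axin2+ over Axin2- (right, a dye swap of the same pools), with all other genes in grey and members colored by role. Sfrp1 is the highest KO member in both pairs, Lrp5 also lies above 0 in both, and Fzd4 and Fzd5 have opposite signs. The sorted cells lie along a line with Wif1, Fzd9 and Kremen2 at its lower part. Beyond the axes lie 10 genes on the left and 1 on the right.

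The second question was which parts of the machinery differed between Wnt-responsive Axin2+ epithelial cells and their Axin2- neighbours. Wif1, Fzd9 and Kremen2 were lower in the Axin2+ pool and Fzd2 was higher. These were 4 of 28 measured members past 1.5-fold alike, against 14.8% of 15880 genes, with 1 higher against 7.87% and 3 lower against 6.92%. The count of members was thus near the share over all genes. The median of the members' mean log2 ratios was -0.08, and that of all genes was -0.00. Of the 28, 8 were higher on both arrays, 14 lower on both and 6 opposite, and over all genes these shares were 41.1%, 41.7% and 17.3%. The arrays share their RNA, so agreement between them says nothing of the spread between mice.

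**Figure D5:**
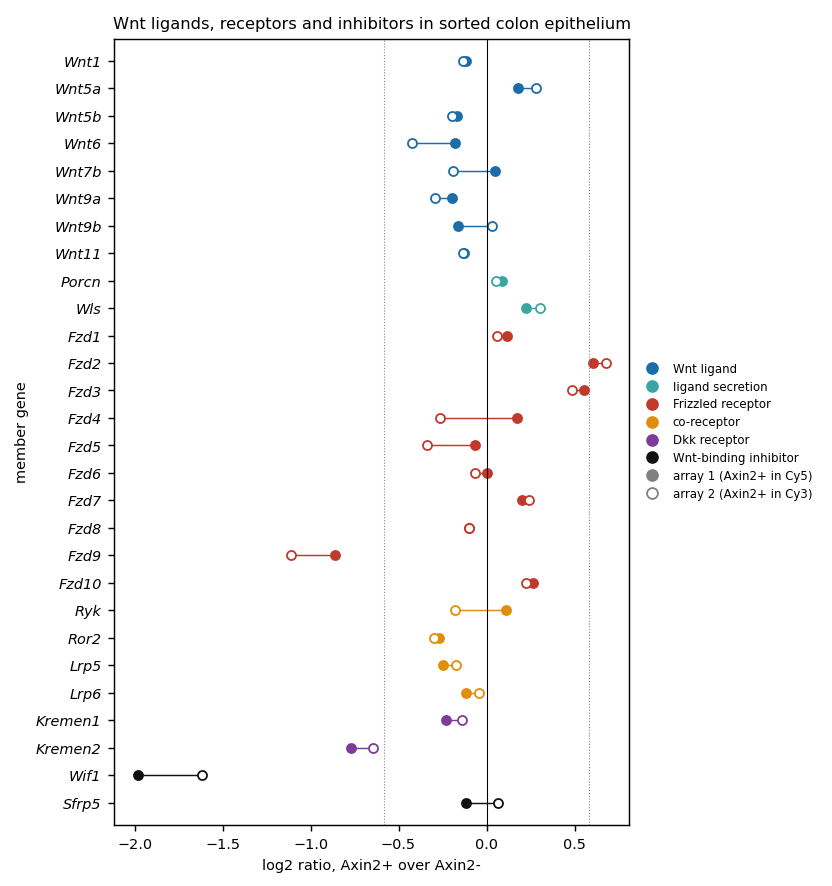
Log2 ratio of Axin2+ over Axin2- for the 28 measured members, with the first array filled, the dye-reversed array open and dotted lines at 1.5-fold. Wif1, Fzd9 and Kremen2 lie left of the lower line on both arrays, and Fzd2 lies right of the upper line.

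Wif1 had a signal of 7.81 in Axin2- and 5.83 in Axin2+ on the first array, where the Axin2+ channel was not above background, and of 8.38 and 6.76 on the second, where both were. Its log2 ratios were -1.98 and -1.62 with a mean of -1.80, in which the Axin2+ pool was measured on 1 of the 2 arrays. The size depended on how the background was treated: the mean was -2.56 with an offset of 16 and -3.99 by the extraction software.

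Fzd9 had signals of 8.44 in Axin2- and 7.58 in Axin2+ on the first array and of 8.72 and 7.61 on the second, a mean log2 ratio of -0.99 or 1.98-fold. Kremen2 had 8.56 against 7.80 and 8.64 against 8.0, a mean of -0.71 or 1.63-fold. Fzd9 is a Frizzled best known from brain and bone. Kremen2 is a receptor through which Dkk proteins such as Dkk1 remove Lrp5 and Lrp6 from the surface. Within each of the 2 arrays the Axin2- channel was the brighter for both genes.

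The 250 bases upstream of the RefSeq start (build GRCm38.p6) are shown for Wif1, Fzd9 and Kremen2, the members past 1.5-fold lower in Axin2+. Those of Fzd7 and Dkk1 are shown because their windows hold the letters that Tcf and Lef factors bind. Capitals mark CTTTGNN, with each N an A or a T, on either strand, and no matches overlap. Wif1 is at chr10:121033754-121034003 on the plus strand, Fzd9 at chr5:135251048-135251297 and Kremen2 at chr17:23745830-23746079 on the minus strand, Fzd7 at chr1:59481897-59482146 on the plus strand and Dkk1 at chr19:30549497-30549746 on the minus strand.
Wif1: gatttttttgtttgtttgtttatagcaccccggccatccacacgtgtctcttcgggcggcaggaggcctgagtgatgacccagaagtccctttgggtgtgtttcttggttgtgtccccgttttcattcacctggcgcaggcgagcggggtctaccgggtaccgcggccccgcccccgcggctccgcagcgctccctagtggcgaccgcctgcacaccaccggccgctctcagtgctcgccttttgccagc
Fzd9: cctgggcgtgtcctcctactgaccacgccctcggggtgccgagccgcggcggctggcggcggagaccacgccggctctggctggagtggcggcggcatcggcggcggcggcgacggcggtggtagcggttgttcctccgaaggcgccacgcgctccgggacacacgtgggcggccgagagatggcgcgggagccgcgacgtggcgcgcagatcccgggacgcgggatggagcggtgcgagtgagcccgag
Kremen2: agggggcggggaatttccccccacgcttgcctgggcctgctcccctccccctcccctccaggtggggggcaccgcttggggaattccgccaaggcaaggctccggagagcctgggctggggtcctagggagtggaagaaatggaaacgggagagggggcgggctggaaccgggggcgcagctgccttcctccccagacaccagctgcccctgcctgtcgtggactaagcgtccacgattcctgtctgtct
Fzd7: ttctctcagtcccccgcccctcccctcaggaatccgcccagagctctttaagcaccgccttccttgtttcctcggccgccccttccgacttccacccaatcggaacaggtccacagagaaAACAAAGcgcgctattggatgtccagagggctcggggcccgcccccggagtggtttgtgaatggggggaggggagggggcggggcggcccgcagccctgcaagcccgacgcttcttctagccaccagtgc
Dkk1: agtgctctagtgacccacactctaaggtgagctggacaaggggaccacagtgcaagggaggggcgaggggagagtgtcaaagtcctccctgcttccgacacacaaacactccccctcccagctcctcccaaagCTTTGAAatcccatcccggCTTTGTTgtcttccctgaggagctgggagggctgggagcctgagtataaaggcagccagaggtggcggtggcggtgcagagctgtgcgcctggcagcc
The windows of Wif1, Fzd9 and Kremen2 hold none of these letters, that of Fzd7 holds 1 match and that of Dkk1 holds 2. Of the 48 members, 32 were matched by symbol to a promoter in the table, and 4 of them hold a match, which are Dkk1, Fzd7, Wnt11 and Wnt5b. A match is held by 14.8% of all 32851 promoters given there and by 11.4% of the 35 promoters of members. The sorted pools gave Fzd7 log2 ratios of 0.20 and 0.24, while Dkk1 was not above background.

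Fzd2 was the member past 1.5-fold on the higher side, with signals of 8.48 in Axin2+ and 7.88 in Axin2- on the first array and of 8.42 and 7.74 on the second. The mean log2 ratio was 0.64, 1.56-fold. A second Fzd2 probe, above background in the Axin2+ channels alone, had 0.05 and 0.30, and the mean over both probes was 0.41, below 1.5-fold. The brighter probe is shown beside a Fzd7 probe because Fzd2 and Fzd7 are close relatives and these were the most alike of the probes of different member genes. They lie on the plus strand of mm9, at chr11:102467613-102467672 for Fzd2 and at chr1:59541367-59541426 for Fzd7, and capitals mark the bases they share when aligned without gaps.
Fzd2 A_51_P404077: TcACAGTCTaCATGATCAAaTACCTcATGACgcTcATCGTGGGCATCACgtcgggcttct
Fzd7 A_51_P142107: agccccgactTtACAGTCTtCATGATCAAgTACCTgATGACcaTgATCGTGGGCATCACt
The probes overlap over 50 bases and share 42 of them. The Fzd7 probe shown was above background in 1 of the 4 channels of the sorted pools, with log2 ratios of 0.03 and 0.04, and was too dim to compare with the Fzd2 probe. The brighter Fzd7 probe, at another site, gave the ratios of 0.20 and 0.24.

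Of the other Frizzleds, Fzd3 came next, at 0.55 and 0.48 on its brightest probe, while its other probes had 0.05 and 0.18 and 0.13 and -0.05. Fzd10 was higher on both arrays at 0.27 and 0.23, and its other probe had -0.10 and 0.08. Fzd5 was lower on both at -0.06 and -0.34. Fzd1, Fzd4, Fzd6 and Fzd8 lay between -0.27 and 0.17 on each array.

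The co-receptors and ligands differed less. Lrp5 had -0.25 and -0.17, Lrp6 had -0.12 and -0.04, and Ror2, a receptor of Wnt5a, had -0.27 and -0.30. Ryk had 0.11 and -0.18 on its brighter probe and -0.14 and -0.15 on the other. The dimmer Lrp6 probe had 0.02 and -0.10. Wls, the carrier of all lipid-bearing Wnts, was higher in Axin2+ on both of its probes, at 0.22 and 0.30 and at 0.49 and 0.65, and Porcn had 0.09 and 0.05. The 2 Kremen1 probes went opposite ways, at -0.23 and -0.14 and at 0.13 and 0.27.

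Of 8 measured ligands, Wnt5a was the only one higher on both arrays, at 0.18 and 0.28. Wnt6, an epithelial ligand in the gut, had -0.18 and -0.42, Wnt5b had -0.17 and -0.20 and Wnt1 had -0.12 and -0.14. Wnt11 and Wnt9a were above background in the Axin2- pool alone, and their means were 1.1-fold and 1.19-fold lower in Axin2+. Wnt7b, Wnt9b and, of the inhibitors, Sfrp5 had opposite signs on the arrays and lay between -0.19 and 0.06.

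Of 46 other pathway genes (Axin2, which marked the cells, was left out), 36 were measured and 10 were past 1.5-fold alike (14.8% of all genes), 9 higher (7.87%) and 1 lower (6.92%). The higher ones were Lgr5 at 1.5 and 1.56, Cd44 at 1.31 and 1.51, Myc at 1.17 and 1.28, Rnf43 at 1.14 and 1.25, Ephb3 at 1.1 and 0.99, the planar polarity gene Vangl2 at 0.85 and 1.14, the beta-catenin cofactor Bcl9 at 0.72 and 0.79, Ccnd1 at 0.70 and 0.61 and Sox9 at 0.65 and 0.73. The lower one was Tcf7l1, often a repressor of Wnt targets, at -0.84 and -0.72. The median of their mean log2 ratios was 0.13, against -0.08 for the ligands, receptors and inhibitors.

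Markers of surface colonocytes and enteroendocrine cells were lower in the Axin2+ pool. All 6 surface colonocyte markers were lower in Axin2+ on both arrays with a median mean log2 ratio of -2.76, and their summed linear signal was 48638 in Axin2+ against 89382 in Axin2- on the first array and 53698 against 87708 on the second. All 5 enteroendocrine markers were lower too, with a median of -2.11. The 6 goblet and deep crypt secretory markers differed less, with a median of -0.32, and 5 of them were lower on each array. Of these, 2 were past 1.5-fold alike: Reg4 at -1.29 and -1.36 and Tff3 at -1.33 and -1.03. Muc2 was higher, at 0.30 and 0.34. The part of these cell types in the Wif1, Fzd9 and Kremen2 values was not tested.

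Side by side, Wif1 was lower in Rspo3 KO colon and in Axin2+ cells, near the background in the former. Lrp5 had a mean log2 ratio of 0.89 in KO and -0.21 in Axin2+, Fzd7 had -0.46 and 0.22, and Wnt5a had 0.48 and 0.23. Sfrp1, the member with the largest KO difference, was not above background in any channel of the sorted epithelium, and neither were Sfrp2, Sfrp4 and Frzb. The experiments were hybridized separately, and no difference between them was tested.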

How the data were processed

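RNA of the 4 arrays was labelled, hybridized and scanned by the authors, who ran Agilent Feature Extraction (version 11.5.1.1). The authors deposited, for each spot and dye, linear intensities (the mean signal and the median of its background) and the log10 ratio of red (Cy5) to green (Cy3) made by that software, which the series' value table repeats. Software p-values were not used. The error-weighted combination described in the methods was not repeated. The labels give Trizol for all RNA and the methods another kit for whole colon.

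Background was corrected with limma (version 3.58.1, R version 4.3.3) by normexp with an offset of 50, fitted without background outlier spots (66 and 6 on the KO arrays), and log2 ratios were normalized by loess. For the levels, average intensities were also quantile normalized between the arrays of each experiment (limma's Aquantile). Control spots and outliers were left out (124 to 510 spots per array) and spots of a probe averaged. Between 53.1% and 60.3% of gene spots per channel were well above background, and precision is limited by how few arrays there are. Probes were named through RefSeq (GRCm38.p6) by accession (27675), symbol (5587) or synonym (471), and 7441 kept the file's name. On the Axin2 slide's later design file 2 member probes, of Ror1 and Wnt5a, carry transcript names, and they were kept. Both arrays of an experiment lay on 1 slide.

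KO ratios were tested against 0 by limma (lmFit, eBayes; 6.75 prior degrees of freedom) with Benjamini-Hochberg adjustment over all genes at 0.05. The Axin2 arrays have no test. For Wif1 in KO and for Wnt11 and Wnt9a in Axin2+, the dimmer group was not above background. The fold given there sets the mean normalized signals of the groups against each other and is no bound. All members are named, and statistics are given for those past 1.5-fold alike or the test. Some of the further probes that passed the filter and differed are also given. The members and lists were chosen with earlier results of these data known. The functions were tested on simulated data.

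Alternatives were the software's ratios, all spots in the background fit, an offset of 16, no background correction, median centring, no dim-probe filter or a stricter one asking for both channels, averaging a gene's probes, leaving out each array, 1 fit of 4 arrays with a dye term, a 2-fold threshold and, chosen after seeing the data, each probe tested by itself.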

Additional observations from a re-analysis of the deposited data

How the results depend on the processing

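The KO count of 1 member past the adjusted p was 0 by limma with all spots in the background fit (2 members at an unadjusted p below 0.05), with median centring (1), without the filter (5) and with the mean over probes (5), and 2, Sfrp1 and Lrp5, with a dye term over 4 arrays. Members past 1.5-fold alike in KO, 2 as reported, numbered 5 by the software's ratios, 1 with all spots in the background fit, 4 with an offset of 16, 1 with median centring and 1 past 2-fold. Leaving out an array gave 5 without the first and 7 without the second, which rest on 1 pair. In the sorted pools the 4 members became 11 by the software's ratios, 2 with median centring (Fzd3 and Wif1) and 1 past 2-fold (Wif1). The other pathway genes past 1.5-fold numbered 3 with median centring and 2 past 2-fold in KO, where each array alone gave 7 and 10, and 4 and 5 in the sorted pools. Over all KO genes 37 passed the adjusted p, against 130 by the software's ratios, 127 with an offset of 16, 71 without background correction, 8 with median centring, 5 with the mean over probes, 1 with all spots in the background fit and 0 without the filter, where 1205 had an unadjusted p below 0.05. The cause of these differences was not tested. The mean ratio of no member past 1.5-fold alike changed sign under any alternative that was run. With median centring, however, some kept a mean past 1.5-fold but had opposite signs on the arrays. These were Lrp5 in KO (mean 0.93) and Fzd2 (0.71), Fzd9 (-0.95) and Kremen2 (-0.68) in the sorted pools. No paired analysis was possible because the experiments share replicate numbers but no mice, while KO and control mice are already paired within each array's ratio. Probes near background limit the size of ratios such as that of Wif1.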
